A study of Caenorhabditis elegans with 8 samples.

Results

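The aspartyl proteases named asp and the cathepsin B-like cysteine proteases named cpr are digestive and lysosomal enzymes of *Caenorhabditis elegans*. Every gene whose symbol was asp- or cpr- followed by a number was taken from the gene count table, which gave 25 genes of 46093, of which 17 were asp and 8 were cpr. Aspartyl proteases of this kind resemble cathepsin D and pepsin, and cleave proteins at acid pH with a pair of aspartates. Cathepsin B-like proteases use an active-site cysteine. Both kinds are made as inactive precursors, pass through the endoplasmic reticulum and work in lysosomes or in the gut lumen, and much of their expression in the worm is known from the intestine.

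The libraries were poly(A) RNA from whole worms of 2 strains, N2 (the standard wild type) and an atf-6 strain, with 4 independent biological replicates of each. ATF-6 is a membrane-bound transcription factor of the endoplasmic reticulum that is released when unfolded proteins accumulate. Each replicate held about 1000 synchronised worms raised on OP50-1 bacteria for 72 h at 20 °C to day 1 of adulthood, and the labels name no drug or stress. The labels name no atf-6 allele and no number of independent lines. Transcript of atf-6 itself was not lower in the atf-6 libraries. It stood at 10.8, 12.8, 13.2 and 12.5 CPM (counts scaled to library size) in the wild-type libraries and at 16.04, 15.1, 14.7 and 14.1 in the atf-6 libraries, and the log2 fold change was 0.28 (SE 0.0911, adjusted p = 0.346 by edgeR). Without the allele, this level does not check the genotype.

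Most of these genes lie on chromosome V. By the WBcel235 annotation, 20 of the 25 (80%) are on V, against 25.04% of the 19579 protein-coding genes of the count table. A further 4 are on X (asp-3, asp-4, asp-14 and cpr-6) and asp-9 is on IV. These 25 are annotated as protein-coding. Taking members within 20 kb of each other as a cluster, 13 of them fall into 5 clusters. The largest is asp-17, asp-16, asp-15 and asp-1 on V between 19035723 and 19050752, all on the minus strand. The next holds asp-6, asp-12 and asp-5 between 8267511 and 8274044, with 272 and 328 bases between neighbours. The pairs are asp-8 with asp-7, asp-19 with asp-18, and cpr-5 with cpr-8.

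In the 2 largest clusters, members with high and low levels lay side by side. TPM values, which correct for transcript length as well as depth, are used for levels between genes, and CPM for comparisons between strains. For some genes the strains are also compared in TPM, which were not scaled further between libraries. In the cluster of asp-1, which codes for an aspartyl protease of gut cells, asp-1 had 587 ± 43.6 TPM (SD, n = 4) in wild type. In the same cluster asp-17 had 0.590 ± 0.195 TPM, asp-15 had at most 2 counts in any library, and asp-16 had 0 counts in all 8. In the next cluster asp-6 had 421 ± 22.7 TPM and asp-5 had 158 ± 4.07, while asp-12, which lies between them, had 12.9 ± 1.89.

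In total 18 of the 25 members (11 asp and 7 cpr) passed the filter on low counts and were tested. The other 7 were asp-7, asp-9, asp-15, asp-16, asp-18, asp-19 and cpr-2, with at most 3 counts in any library, and asp-16, asp-18 and asp-19 had none at all. Library depth was 12664222 to 21698298 estimated counts, and differences in these 7 genes were not detectable at this depth.

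The most abundant member was asp-1, and its 4 wild-type libraries all lay above those of the next gene, cpr-6 (427 ± 27.98 TPM). The wild-type libraries of cpr-6, asp-6 and cpr-9 (402 ± 13.1 TPM) overlapped between neighbours in this order. They were followed by asp-3 at 327 ± 22.8 TPM, which did not overlap cpr-9. A middle range held cpr-4 (223 ± 12.7 TPM) and cpr-5 (205 ± 5.32), which overlapped, then cpr-1 (186 ± 10.35) and asp-5, which overlapped neither each other nor cpr-5. Below them in mean TPM came asp-2 (mean 149.6 TPM, 126 to 160 over the 4 libraries), which overlapped asp-5. Next were asp-4 (114.8 ± 15.2) and asp-13 (94.3 ± 14.6), each overlapping the gene before it. A gap of 6.57-fold in mean TPM separated asp-13 from asp-14 (14.4 ± 1.58 TPM). The remaining genes were asp-12, cpr-8 (9.31 ± 1.25 TPM), asp-8 (3.36 ± 0.271), cpr-3 (1.95 ± 0.303) and asp-17. Of all tested genes, 98.3% had a lower wild-type TPM than asp-1, and 33.2% had a lower one than asp-8.

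**Figure D1:**
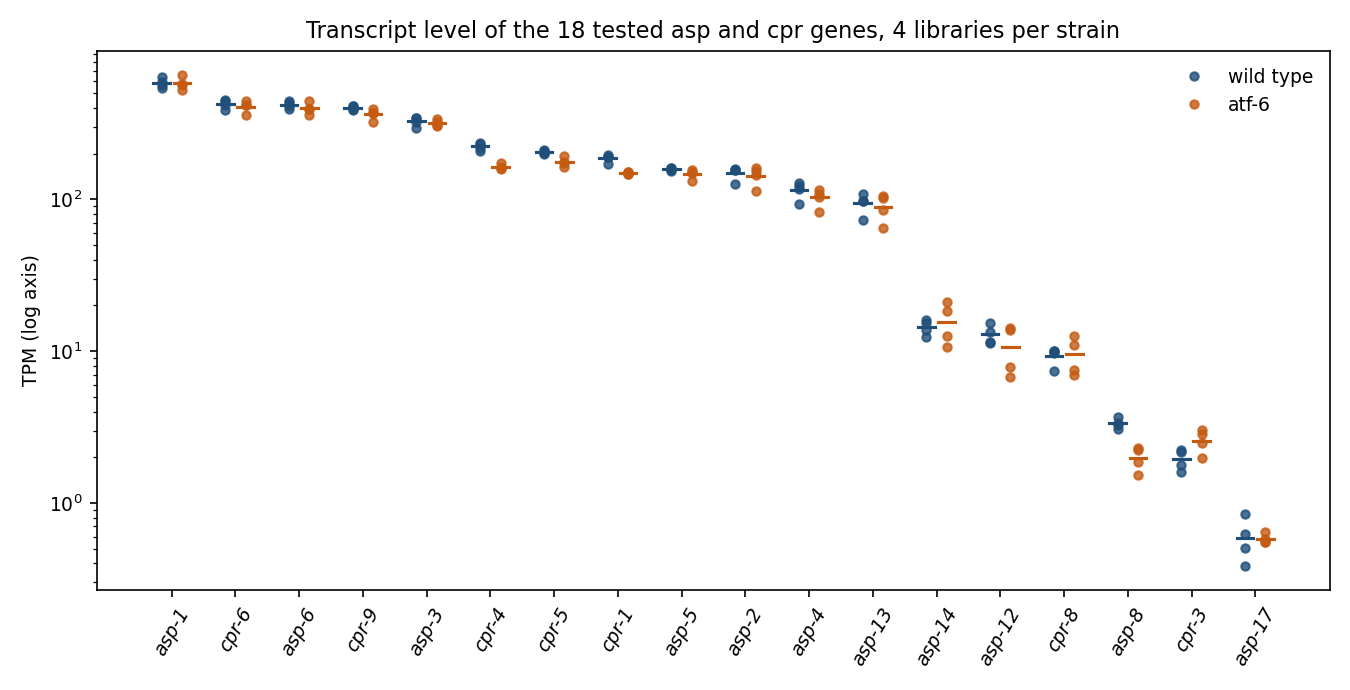
TPM on a log axis for the 18 tested genes, ordered by wild-type mean, with 1 point per library, 4 libraries per strain, and a bar at each strain's mean. The genes from asp-1 to asp-13 lie above the gap, between 587 and 94.3 TPM in wild type, and asp-8 at 3.36 TPM is the third from the right.

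Most of these genes had 1 dominant transcript. For asp-1, asp-2, asp-5, asp-12 and cpr-6, a single annotated transcript held at least 91.2% of the gene's reads in every library, and asp-13 had reads on only 1 of its 2 transcripts. In cpr-8 the longer form held between 72.4% and 81.0%. Genes of a family with similar sequence can share reads, and how far that moved counts between asp or cpr copies was not tested. asp-2 and asp-4 overlap genes on the opposite strand, inx-10 and R12H7.4. The library kit keeps strand, but the sources used here do not say whether quantification used it.

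The libraries stood apart from each other within each strain, and the abundant proteases moved together with that spread. On the CPM scale, wild-type replicate 3 was the highest of its strain for 11 of the 18 genes, and wild-type replicate 1 the lowest for 13. Among the atf-6 libraries, replicate 1 was the highest for 10 genes and replicate 3 the lowest for 11. The 9 genes with the highest TPM (asp-1, cpr-6, asp-6, cpr-9, asp-3, cpr-4, cpr-5, cpr-1 and asp-5) showed all 4 of these extremes. For asp-1 the wild-type values were 1087, 1259, 1651 and 1264 CPM, and the atf-6 values 1417, 1287, 1116 and 1292. The surrogate variable, a covariate estimated from the whole expression table to describe variation beyond strain, had its extremes in the same libraries, at 0.583 in wild-type replicate 3 and −0.525 in atf-6 replicate 3.

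This order of libraries depended on the scale. On the TPM scale none of the 18 genes showed all 4 extremes, and atf-6 replicate 1 was the lowest of its strain for 13 of them while atf-6 replicate 4 was the highest for 13. The median TPM of the tested genes ran from 7.65 in atf-6 replicate 1 to 11.1 in atf-6 replicate 3. On the CPM scale the less abundant genes did not show all 4 extremes either. In asp-8, asp-12, asp-13, asp-14 and cpr-8, atf-6 replicates 1 and 2 lay below atf-6 replicates 3 and 4. In asp-2, asp-4, asp-17 and cpr-3 they did not. The median coefficient of variation of the 18 genes was 11.98% in wild type and 9.24% in atf-6, against 11.7% and 11.6% over the 12375 genes tested. Most of the 18 are more abundant than most tested genes, and genes of like abundance were not compared.

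**Figure D2:**
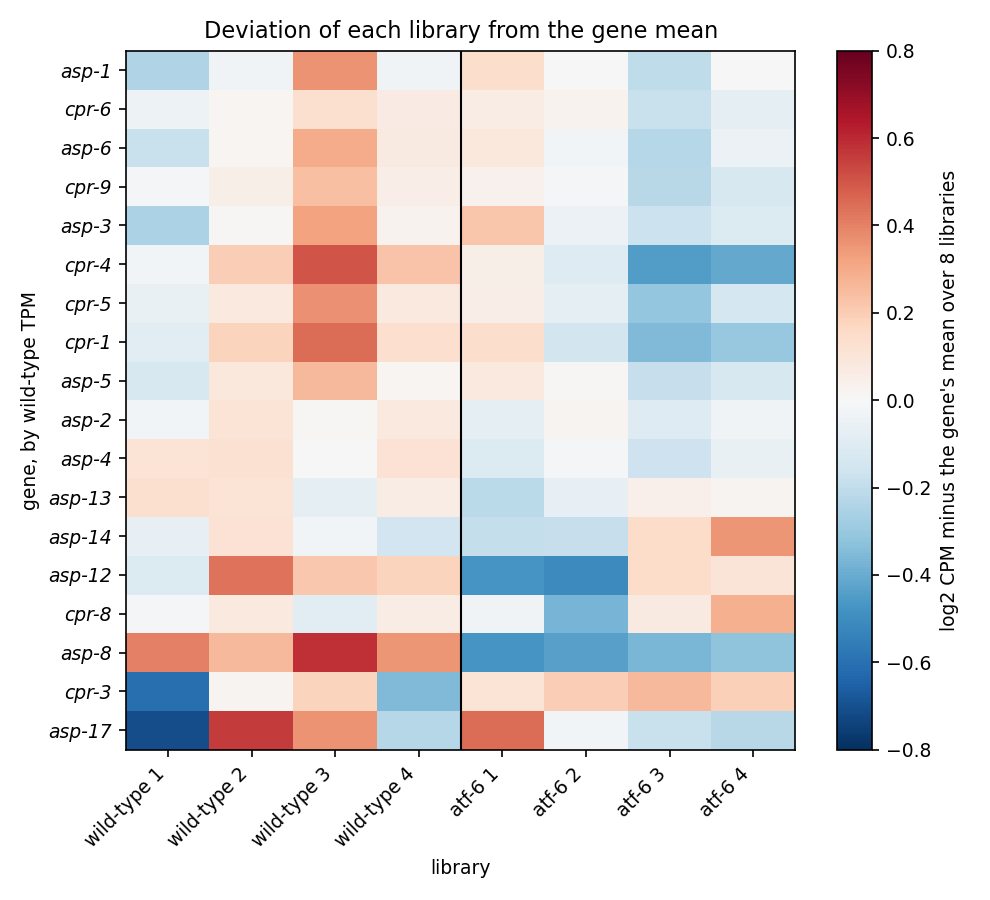
Colour gives log2 CPM minus the gene's mean over the 8 libraries, for the 18 tested genes (rows, by wild-type TPM) and 8 libraries (columns, with a line between the strains). The upper 9 rows are red in wild-type replicate 3 and blue in atf-6 replicate 3, while asp-8 is red in the 4 wild-type columns and blue in the 4 atf-6 columns.

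The comparison of the strains asked which of the proteases differed in worms of the atf-6 strain. Of the 18 tested, asp-8 alone passed an adjusted p of 0.05 in edgeR's quasi-likelihood test, and it fell. Over all 12375 genes tested, 0.816% passed, 0.105% lower and 0.711% higher. At an unadjusted p under 0.05, 5 of the 18 were lower (asp-4, asp-8, cpr-1, cpr-4 and cpr-5), against 1.61% of all genes, and none was higher, against 5.39%. The log2 fold change was below 0 for 16 of the 18, against 49.3% of all genes. Its median was −0.11 over both families, −0.11 over asp and −0.17 over cpr, against 0.00 over all genes. Since the abundant members share 1 pattern across libraries, they are not separate observations of the strain difference.

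asp-8 is WBGene00019105, on V from 3024549 to 3027931 on the plus strand, with 4 exons and 1 annotated transcript. It codes for a member of the aspartyl protease family. It had 114, 166, 154 and 181 estimated counts in the wild-type libraries and 64, 83, 106 and 98 in the atf-6 libraries. Scaled to depth, these were 8.66, 7.81, 9.81 and 8.34 CPM in wild type and 4.71, 4.84, 5.07 and 5.23 in atf-6. The 4 atf-6 libraries all lay below the 4 wild-type libraries, and the gap between the groups was wider than the range within either.

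The wild-type mean of 8.65 ± 0.845 CPM and the atf-6 mean of 4.96 ± 0.232 CPM (SD, n = 4) correspond to a 1.74-fold lower level in atf-6. The log2 fold change was −0.80 (SE 0.109, edgeR adjusted p = 0.0114). This was the 5th largest fall among the 13 genes that passed lower. The call was lost without wild-type replicate 4 (log2 fold change −0.82, edgeR adjusted p = 0.0641), and held without both replicate 3 libraries (−0.74, adjusted p = 0.0270). In RNA from whole worms, fewer cells that express a gene and less transcript per cell cannot be told apart.

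Per length, asp-8 gave the same order of the strains. It had 3.71, 3.05, 3.29 and 3.38 TPM in wild type and 1.52, 1.85, 2.24 and 2.29 in atf-6, with no overlap. On log2(TPM + 0.5), where the pseudocount understates the change of a gene this low, limma gave −0.65 (adjusted p = 0.0904), which did not pass.

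Set against its family, asp-8 held a small share, and a smaller one in atf-6. It made up 0.219%, 0.174%, 0.186% and 0.185% of the summed asp CPM in the wild-type libraries and 0.101%, 0.111%, 0.130% and 0.122% in the atf-6 libraries, with no overlap. The summed asp CPM itself overlapped between the strains, at 3949 to 5268 in wild type and 3904 to 4676 in atf-6. The log2 fold changes of the other 10 tested asp genes lay between −0.34 and 0.08, and none passed the adjusted threshold. The difference between asp-8 and its relatives was described by these values and was not tested.

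The genome around asp-8 gave little to compare. Its nearest relative by position, asp-7, begins 353 bases past its end on the same strand and had 1 count over all 8 libraries. The only other gene within 50 kb that passed the filter was chpf-2, whose log2 fold change was −0.18 (SE 0.236, adjusted p = 0.933 by edgeR).

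Markers of other cells were set beside this result. Of 10 intestine markers, 9 had a row, all 9 were tested and none passed, against 0.816% of all genes. At that share, no call among 9 genes says little about the intestine. The summed level of the 9 markers was 1026 to 1209 CPM in wild type and 1104 to 1152 in atf-6, which overlapped. Sperm markers did differ. Of 4 genes, 3 were tested and all 3 rose (msp-57, spe-11 and ssp-16), against 0.711% of all genes that passed higher. The summed level of the 4 was 8.85 to 16.004 CPM in wild type and 23.4 to 33.5 in atf-6. The fourth, spe-9, was not tested and lay the other way, at 0, 0.424, 0.0637 and 0.415 CPM in wild type (mean 0.225) and 0.0736, 0.175, 0.0957 and 0.1601 in atf-6 (mean 0.126), with overlap. The part of sperm RNA in the fall of asp-8 was not tested.

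**Figure D3:**
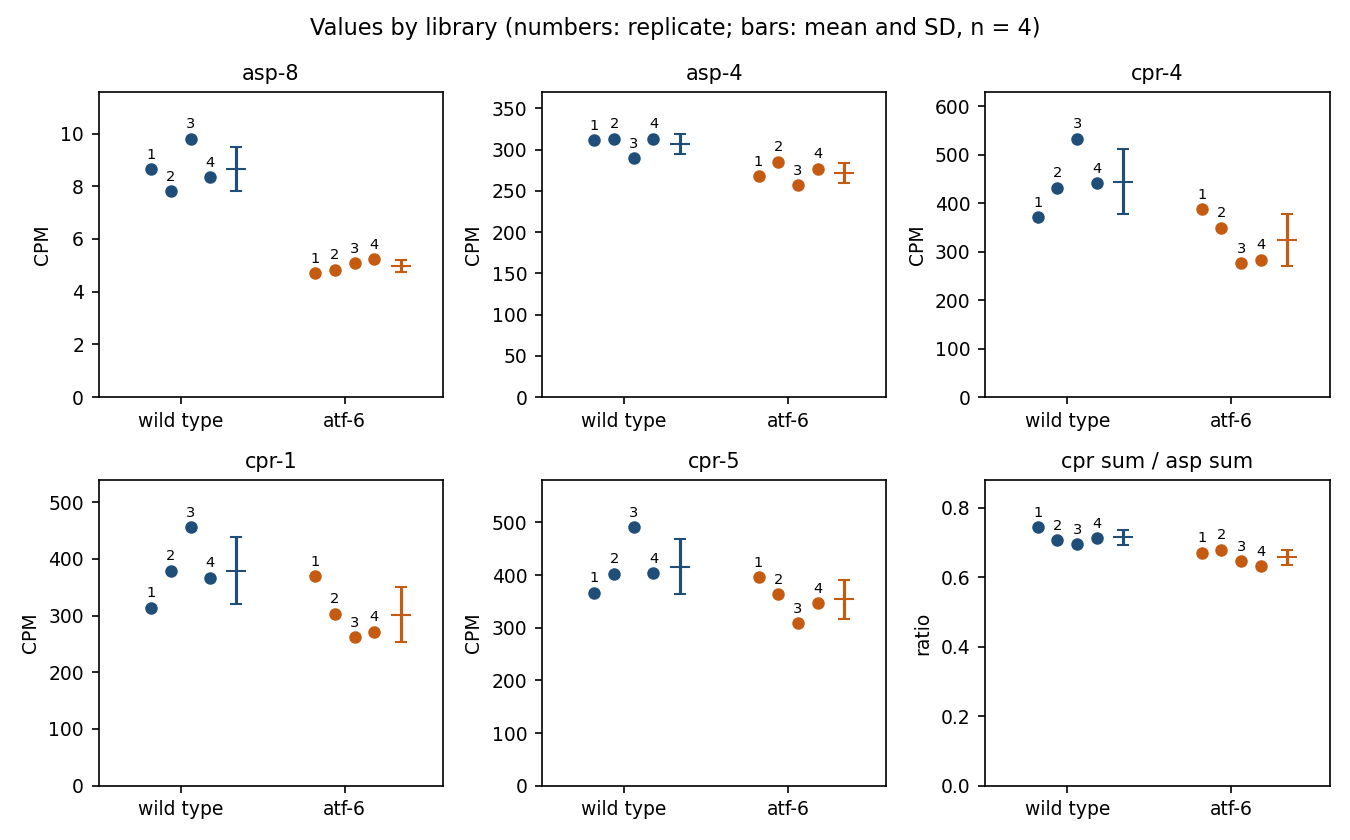
CPM of asp-8, asp-4, cpr-4, cpr-1 and cpr-5, and the ratio of summed cpr to summed asp CPM, by strain, on axes from 0. Points are libraries numbered by replicate, and bars are the mean and SD (n = 4). The groups do not overlap for asp-8, asp-4 or the ratio, and for the 3 cpr genes atf-6 replicate 1 lies within the wild-type range.

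Among the other aspartyl proteases, asp-4 varied little within a strain, with a coefficient of variation of 3.84% in wild type and 4.44% in atf-6. Together with asp-3 it is known for a role in necrotic death of neurons in the worm. asp-4 had 311, 313, 289 and 313 CPM in the wild-type libraries and 268, 285, 257 and 277 in atf-6. The atf-6 libraries all lay below the wild-type libraries. Groups that did not overlap in this direction were found for asp-4 and asp-8, 2 of the 18, against 2.02% of all genes. The log2 fold change of asp-4 was −0.18 (SE 0.0585, unadjusted p = 0.0125, edgeR adjusted p = 0.371), so it did not pass. On the TPM scale the groups overlapped, at 92.9 to 128 in wild type and 82.5 to 116 in atf-6.

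The 3 most abundant aspartyl proteases did not pass, and their groups overlapped. asp-1 was at a log2 fold change of −0.04 (SE 0.127, adjusted p = 0.966 by edgeR). asp-3 had 751, 902, 1119 and 915 CPM in the wild-type libraries and 1045, 868, 795 and 832 in atf-6, and the log2 fold change was −0.06 (SE 0.126, adjusted p = 0.953 by edgeR). asp-6 had 805, 924, 1122 and 961 CPM and 968, 900, 780 and 881, and the log2 fold change was −0.11 (SE 0.108, adjusted p = 0.917 by edgeR). The sign of all 3 changed without the replicate 3 libraries. Without both of them the values were 0.15 for asp-1, 0.096 for asp-3 and 0.03 for asp-6, and none passed. For these genes wild-type replicate 3 was the highest of its strain and atf-6 replicate 3 the lowest. Leaving out that pair moves the estimate up by itself, so the change of sign does not single out these libraries.

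Of the cathepsin B-like genes, cpr-4, cpr-1 and cpr-5 had the largest differences below 0. cpr-4 codes for a cathepsin B homologue that is known to be secreted after irradiation and to act on distant cells. It had 371, 432, 534 and 442 CPM in the wild-type libraries and 388, 350, 276 and 284 in atf-6. The groups overlapped only in that atf-6 replicate 1 lay above wild-type replicate 1. The log2 fold change was −0.46 (SE 0.132, unadjusted p = 0.00569, edgeR adjusted p = 0.229), short of the threshold.

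On the TPM scale the cpr-4 groups separated. It had 207, 219, 233 and 233 TPM in wild type and 163, 174, 159 and 162 in atf-6, means of 223 ± 12.7 and 164 ± 6.70. On log2(TPM + 0.5) the difference was −0.44 (SE 0.0594, limma adjusted p = 0.0252), and cpr-4 was the 1 gene of the 18 to pass lower there, against 0.0566% of all genes. That test was added after the counts had been compared. It used TPM with no further scaling between libraries. The median TPM of the tested genes was lowest, at 7.65, in atf-6 replicate 1, the atf-6 library that lay within the wild-type range in CPM.

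cpr-1 codes for a gut-specific cysteine protease. It had 314, 379, 456 and 367 CPM in the wild-type libraries and 369, 303, 262 and 271 in atf-6, and again replicate 1 of atf-6 lay inside the wild-type range. Its log2 fold change was −0.33 (SE 0.129, unadjusted p = 0.0270, edgeR adjusted p = 0.562). In TPM it had 171, 189, 195 and 190 in wild type and 151, 148, 148 and 152 in atf-6, with no overlap.

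cpr-5 had 367, 403, 491 and 403 CPM in the wild-type libraries and 396, 363, 308 and 347 in atf-6, which overlapped. Its log2 fold change was −0.23 (SE 0.102, unadjusted p = 0.0431, edgeR adjusted p = 0.685). In TPM the groups separated narrowly, 200.4 to 210 against 163 to 194. In all, 4 of the 18 genes had TPM groups that did not overlap and were lower in atf-6 (asp-8, cpr-1, cpr-4 and cpr-5), against 0.962% of all genes. The cluster neighbour of cpr-5, cpr-8, had 12.5 ± 0.659 CPM in wild type and 12.4 ± 2.27 in atf-6.

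Adding the surrogate variable to the edgeR fit raised the number of members that passed to 7, all lower. The share of all genes that passed in that fit was 2.63%, with 0.493% lower. The estimates for cpr-4, cpr-1 and cpr-5 lay a little nearer 0 and had smaller standard errors. cpr-4 went to −0.39 (SE 0.0338, adjusted p = 3.00e-06), cpr-1 to −0.27 (SE 0.0414, adjusted p = 0.00120) and cpr-5 to −0.19 (SE 0.0347, adjusted p = 0.00593). asp-8 was at −0.78 (SE 0.110, adjusted p = 0.000642). The other 3 were asp-4 (−0.18, adjusted p = 0.0212), cpr-9 (−0.13, adjusted p = 0.0223) and asp-13 (−0.14, adjusted p = 0.0422). The surrogate variable was estimated from the same counts and then treated as known. The standard errors and p-values of this fit can therefore be too small.

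When the surrogate variable was estimated again with each library left out in turn, asp-8, cpr-1 and cpr-4 passed in all 8 fits, a check added after the data had been seen. cpr-5 passed in 7, cpr-9 in 5, asp-4 in 4, asp-13 in 2 and asp-12 in 1. These 8 fits shared most of their libraries, and the share of all genes that passed in them was not counted. Leaving out both replicate 3 libraries with no surrogate variable gave values nearer 0 for these cpr genes, −0.29 for cpr-4 (edgeR adjusted p = 0.501), −0.17 for cpr-1 (adjusted p = 0.701) and −0.09 for cpr-5 (adjusted p = 0.738). In these genes wild-type replicate 3 was the highest of its strain in CPM and atf-6 replicate 3 the lowest. Values nearer 0 therefore follow from the libraries left out.

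**Figure D4:**
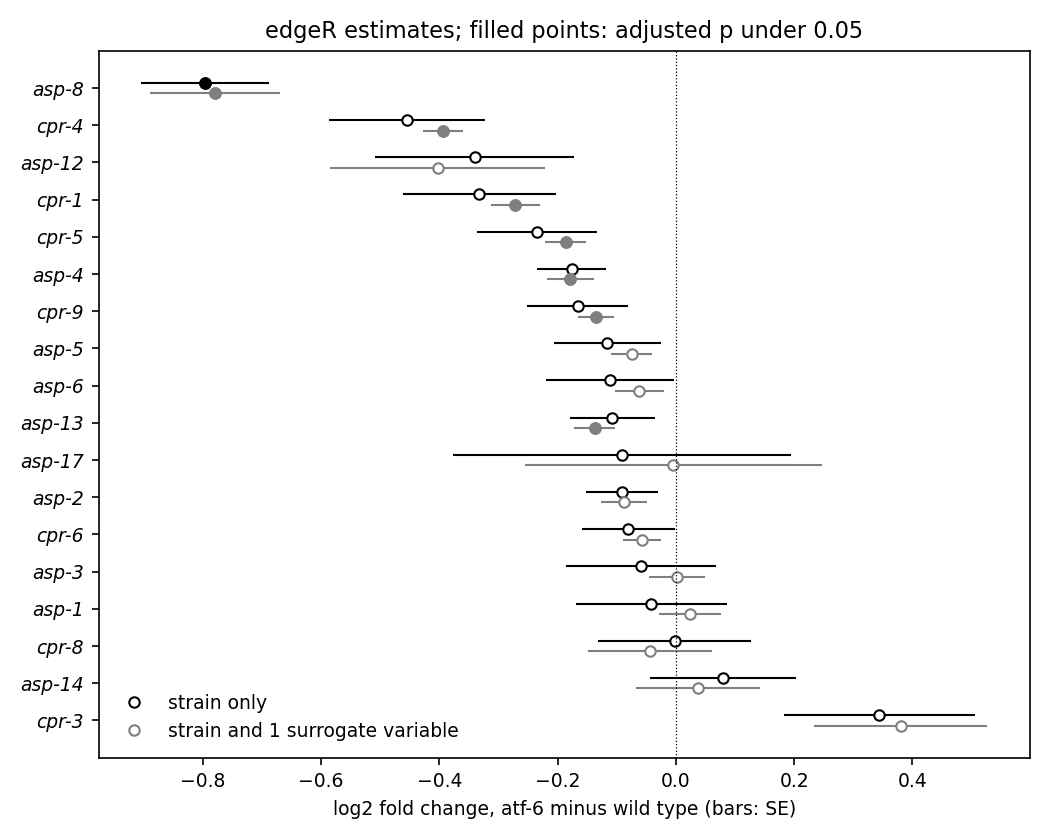
Log2 fold change (atf-6 minus wild type) with its standard error for the 18 tested genes, in black from the fit on strain only and in grey with 1 surrogate variable, filled where the adjusted p was under 0.05. In black asp-8 at −0.80 is the 1 filled point, in grey 7 genes are filled, and 16 of the 18 black points lie below 0.

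The 2 most abundant cpr genes lay nearer 0. cpr-6 had 939, 974, 1052 and 1009 CPM in the wild-type libraries and 1006, 986, 852 and 914 in atf-6, and the log2 fold change was −0.08 (SE 0.0786, adjusted p = 0.918 by edgeR). cpr-9 had 933, 973, 1112 and 975 CPM and 961, 932, 806 and 860, and the log2 fold change was −0.17 (SE 0.0858, adjusted p = 0.810 by edgeR). Both pairs of groups overlapped.

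Shares within the cpr family were compared after the values had been seen, and were not tested. cpr-4 made up 12.6% to 14.6% of the summed cpr CPM in wild type and 10.5% to 12.4% in atf-6, with no overlap. cpr-6 made up 28.7% to 31.9% and 32.1% to 33.9%, again with no overlap and in the other direction. cpr-3 made up 0.116% to 0.166% and 0.178% to 0.246%, also with no overlap. A share can rise because other members fall, and the CPM of cpr-6 and of cpr-3 overlapped between the strains. The shares of cpr-1, cpr-5, cpr-8 and cpr-9 overlapped, that of cpr-9 at 30.4% to 31.7% and 30.6% to 31.9%.

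The ratio of the families also separated the strains. Summed cpr CPM divided by summed asp CPM was 0.745, 0.707, 0.695 and 0.713 in the wild-type libraries and 0.671, 0.679, 0.647 and 0.631 in the atf-6 libraries. The means were 0.715 ± 0.0210 and 0.657 ± 0.0220 (SD, n = 4). Because both sums come from the same library, this ratio does not depend on library scaling, and on TPM it was 0.752 to 0.802 in wild type and 0.676 to 0.729 in atf-6. The summed cpr CPM overlapped between the strains, at 2940 to 3663 and 2524 to 3138, while the summed cpr TPM did not, at 1426 to 1508 in wild type and 1165 to 1357 in atf-6. The summed cpr CPM includes cpr-4, cpr-1 and cpr-5, so the ratio carries their lower values and is not a separate observation. The CPM of cpr-6 and cpr-9, the largest parts of that sum, overlapped between the strains. The ratio was chosen after the values had been seen and was not tested.

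Of the members not yet described, cpr-3 and asp-12 had the largest differences and were picked out for them. cpr-3 had 3.42, 5.27, 5.86 and 4.05 CPM in the wild-type libraries and 5.59, 5.95, 6.22 and 5.92 in atf-6, and the log2 fold change was 0.34 (SE 0.161, adjusted p = 0.745 by edgeR). It was 1 of the 2 members above 0, with asp-14 at 0.08. asp-12 had 22.5, 32.9, 28.2 and 27.5 CPM and 17.5, 17.1, 26.9 and 26.1, and the log2 fold change was −0.34 (SE 0.168, adjusted p = 0.783 by edgeR). Its 4 atf-6 libraries fell apart into a pair near 17 CPM and a pair near 26. The remaining tested members, asp-2, asp-5, asp-13, asp-17 and cpr-8, lay between −0.12 and 0.00, and none passed in the fit on strain only.

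Other protease and lysosome genes were read against the 0.816% of all genes that passed, 0.711% higher and 0.105% lower. Of 7 tested genes for other lysosomal cysteine proteases and their cystatin inhibitors, none passed in either direction. cpl-1, the cathepsin L gene, had a log2 fold change of −0.05, and the cystatin genes cpi-1 and cpi-2 had 0.06 and 0.01. None of 11 serine carboxypeptidase and related peptidase genes passed. At these shares, no call among 7 or 11 genes says little about either group. Of 32 lysosomal membrane and hydrolase genes 1 passed, aagr-4, an acid alpha-glucosidase relative, which rose. It had 20.1, 20.0, 19.9 and 19.9 CPM in the wild-type libraries and 25.8, 29.4, 27.4 and 27.7 in atf-6, and the log2 fold change was 0.46 (SE 0.0695, adjusted p = 0.0207 by edgeR). That call was lost in 5 of the 8 fits with 1 library left out, those without wild-type replicate 1, 2 or 4 or atf-6 replicate 2 or 4.

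None of 6 tested transcription factor genes of the gut and lysosome passed, against 0.816% of all genes. At that share, no call among 6 genes says little about them. elt-2, which codes for the main gut GATA factor, had 9.34 ± 0.911 CPM in wild type and 10.5 ± 0.606 in atf-6, and the log2 fold change was 0.17 (adjusted p = 0.856 by edgeR). hlh-30, which codes for the worm homologue of the lysosomal regulator TFEB, had 56.6 ± 5.77 and 51.7 ± 3.04 CPM, and the log2 fold change was −0.13 (adjusted p = 0.863 by edgeR).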

How the data were processed

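Poly(A) RNA-seq of 8 libraries was used. Per the submitters' processing notes, Salmon 0.9.1, STAR 2.5.3a and DESeq2 1.19.51 are named with the build WBcel235 and no role for each. The gene table deposited by the authors holds estimated counts in whole numbers. The deposited per-sample transcript files give estimated counts, effective lengths and TPM, which were summed per gene by sequence name. Genes were named and placed with the WBcel235 annotation.

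CPM are counts over the TMM-scaled library size. TPM were used with no scaling between libraries. Genes passing filterByExpr (12375) were tested with edgeR 4.0.16 (robust quasi-likelihood, strain only, two-sided, Benjamini-Hochberg over all tested genes, threshold 0.05) in R 4.3.3. SE is the log2 fold change over the root of F. The script was tested on simulated counts. Alternatives used other scalings, filters, DESeq2 1.42.0, limma 3.58.1, 1 surrogate variable (sva 3.50.0), transcript sums, a replicate block and left-out libraries.

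The members and lists were chosen with earlier results of these data known. Genes named with values are asp-8, members at an unadjusted edgeR p under 0.05, the 3 asp and 3 cpr members with the highest mean TPM and members in clusters. Beyond this rule, wild-type levels are given for the 18 tested members in order, and cpr-3, asp-13, asp-14 and asp-2 appear with strain values chosen after these were seen. From the other lists, cpl-1, cpi-1, cpi-2, elt-2, hlh-30 and genes past the threshold are named. A further criterion, the 2 asp proteins closest to asp-8 in sequence, was not applied. Of the listed genes, T28H10.3 and opt-2 matched no symbol. Marker lists for body wall and pharynx muscle, neurons, epidermis, germline and coelomocytes had overlapping sums. No gene of these lists passed the threshold, against 0.816% of all genes. With 2 to 4 tested genes in each list, no call says little about these cells. Deviations from the strain mean did not go together by replicate number, with correlations of −0.385, −0.045, −0.407 and 0.043. Whether libraries with the same number were prepared together was not tested.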

Additional observations from a re-analysis of the deposited data

Results flagged for a closer look

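In asp-4, wild-type replicate 3 stood below the other wild-type libraries, at 289 CPM against 311 to 313. The gap to the nearest library took up 0.920 of the range of the 4, above Dixon's 95% critical value for 4 samples. Of 36 groups of single genes and 8 of summed levels, this was the 1 that passed, and chance alone would pass about 1 in 20. In the same library 11 of the 18 tested members were the highest of their strain.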

How the results depend on the processing

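asp-8 kept its direction under all 20 alternatives and its side of the threshold under 16, with adjusted p from 1.57e-05 (DESeq2) to 0.243. It missed the threshold with a replicate block (−0.80, adjusted p = 0.243), with limma on log2 TPM (−0.65), at a threshold of 0.01 (−0.80) and without wild-type replicate 4; with 1 library left out it ran from −0.84 to −0.73. The cause was not tested. The CPM groups of asp-8 did not overlap, so leaving out 1 library could hardly reverse its direction.

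The number of asp and cpr genes that passed was 1, and became 0 with the replicate block, 7 with 1 surrogate variable, 0 at 0.01, and 0 to 1 with 1 library left out. With limma on log2 TPM the number stayed at 1, but the gene was cpr-4 in place of asp-8. With the surrogate variable and 1 library left out it was 3 without atf-6 replicate 1, 4 without wild-type replicate 2, 5 without wild-type replicate 1 or 4, 6 without atf-6 replicate 3 or 4, and 7 without wild-type replicate 3 or atf-6 replicate 2. For the other protease and lysosome genes it was 1, and became 0 with the replicate block, with limma on log2 TPM and at 0.01, 2 with the surrogate variable, and 0 to 1 with 1 library left out. Over all genes it was 101, and became 4 with the replicate block, 39 with plain transcript sums, 326 with the surrogate variable, 194 with DESeq2, 15 at 0.01, and 16 to 107 with 1 library left out. It was not counted over all genes for the fits with the surrogate variable and 1 library left out. Whether libraries with the same replicate number were prepared together was not tested.

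Members without a call changed sign in places. asp-1 went to 0.023 with the surrogate variable, 0.15 without both replicate 3 libraries and −0.12 to 0.087 with 1 library left out, being above 0 without wild-type replicate 3 and without atf-6 replicate 3. asp-3 went to 0.0022 with the surrogate variable, 0.096 without both replicate 3 libraries and −0.15 to 0.048 with 1 library left out. asp-6 went to 0.031 without both. For asp-1, asp-3 and asp-6 wild-type replicate 3 was the highest of its strain in CPM and atf-6 replicate 3 the lowest. Leaving out either moves such estimates up by itself. The asp-8 share and the cpr to asp ratio kept their direction under the 10 alternatives run for each. Most of these left out 1 library, which could not reverse them because the groups did not overlap. The 7 members with at most 3 counts in a library are beyond what this depth can compare.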
